A study of Mus musculus with 9 samples.

Results

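The 10 genes described here are feedback regulators of the ERK pathway and one of its target transcription factors: the MAP kinase phosphatases Dusp1, Dusp4, Dusp5 and Dusp6, the Sprouty genes Spry1, Spry2 and Spry4, the Sprouty-related genes Spred1 and Spred2, and the ETS factor Etv5. They were taken by symbol from a table of 21676 genes, and all 10 were found in it. The 9 RNA-seq libraries came from cultured B16 cells, a line of mouse melanoma. Cells with the hairpin shAD4-1, cells with the hairpin shAD4-2 and cells with a control hairpin (spelled shCotrol in the labels) gave 3 libraries each. The design text calls the hairpin groups knockdown derivatives and the libraries biological replicates, and the series title names ADGRL4, an adhesion G protein-coupled receptor, with tumour dormancy, Gαs-YAP1 signalling and angiogenesis. All 3 groups were grown in the same medium with serum, with no other treatment in the labels, and the labels do not say whether a hairpin group is 1 clone or a pool, so that p-values measure only the spread between these libraries. The extent of the knockdown was not analysed here.

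Receptor tyrosine kinases activate the GTPase RAS, which switches on the kinases RAF, MEK and ERK in turn. Active ERK induces transcripts that dampen the same route: DUSP phosphatases remove phosphate from MAP kinases, Sprouty proteins act between the receptors and RAF, and Spred proteins bring the RAS inhibitor neurofibromin to the membrane. In melanoma, where the route is often constitutively active, the levels of these transcripts are used as readouts of ERK output.

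The start regions of 3 members are shown, because they differ in recognised elements and belong to the member with the highest level under the hairpins (Dusp6), to the other phosphatase that rose with both hairpins (Dusp1) and to the rarest phosphatase (Dusp5). RefSeq start regions on GRCm38.p6 were matched for 8 of the 10 members, and the 250 bases before the start were searched on both strands for a cAMP response element (TGACGTCA), an AP-1 element (TGANTCA), an ETS element (CCGGAAG) and a CArG box, the element of serum response factor. The elements do not overlap each other in these members. Each line reads 5′ to 3′ on the strand of its gene, and capitals mark a match.
Dusp1, chr17:26508473-26508722, minus strand: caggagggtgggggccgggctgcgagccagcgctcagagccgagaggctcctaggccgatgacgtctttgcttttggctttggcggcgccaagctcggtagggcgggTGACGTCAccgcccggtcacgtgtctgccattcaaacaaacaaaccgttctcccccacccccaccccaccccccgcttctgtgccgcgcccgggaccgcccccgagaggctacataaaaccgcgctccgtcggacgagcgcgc
Dusp5, chr19:53528895-53529144, plus strand: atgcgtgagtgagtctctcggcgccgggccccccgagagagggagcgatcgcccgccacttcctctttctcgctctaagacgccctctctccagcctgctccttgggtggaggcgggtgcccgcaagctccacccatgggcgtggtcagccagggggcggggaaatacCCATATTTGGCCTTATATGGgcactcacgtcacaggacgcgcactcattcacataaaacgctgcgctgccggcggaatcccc
Dusp6, chr10:99262981-99263230, plus strand: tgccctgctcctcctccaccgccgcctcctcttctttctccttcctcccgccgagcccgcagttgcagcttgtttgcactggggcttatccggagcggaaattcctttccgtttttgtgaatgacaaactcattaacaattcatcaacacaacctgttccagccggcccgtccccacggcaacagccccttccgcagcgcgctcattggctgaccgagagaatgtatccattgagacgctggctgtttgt
Dusp1 held 1 cAMP response element, which lay 143 to 136 bases before the start, and 1.55% of 32851 start regions of the same length held one. Dusp5 held 2 adjacent CArG boxes, at 82 to 73 and 72 to 63 bases before the start, against 1.47% of all start regions with at least 1. No match of the 4 elements stood in these windows of Dusp6, Spry1, Spry2, Spred1, Spred2 and Etv5. AP-1 and ETS elements stood in 6.75% and 6.91% of all start regions. A match describes these letters and is not a measured site.

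The libraries held 31.3 to 36.9 M reads over the genes of the table. All 8 melanocyte markers were measured, with a summed level of 4044 to 4143 FPKM (reads per kilobase of gene and per M reads of the library) in shAD4-1, 4433 to 4839 in shAD4-2 and 4654 to 5355 in control libraries. Most of this sum came from Dct (means of 2013, 2251 and 2309 FPKM in shAD4-1, shAD4-2 and control cells) and Tyrp1 (1324, 1333 and 1747). It says little of the other markers, which did not all move in the same direction. Markers of other cell types were low, and some moved with the hairpins. The 3 measured macrophage and leukocyte genes of 6 listed summed to 5.91 to 6.64 FPKM in shAD4-1, 6.68 to 7.30 in shAD4-2 and 2.63 to 3.08 in control libraries, while the defining gene Ptprc had 1 read in all 9 libraries. The 5 measured fibroblast genes of 6 summed to 1.61 to 1.90 FPKM in shAD4-1, 1.97 to 2.26 in shAD4-2 and 0.783 to 1.01 in control libraries, the 4 endothelial genes of 6 to at most 0.216, and the 3 keratinocyte genes of 6 to at most 0.0428. Their part in the results was not tested. The 13 mitochondrially encoded protein genes took 3.62 to 3.81% of the reads in shAD4-1, 3.60 to 3.89% in shAD4-2 and 2.30 to 2.61% in control libraries. Control replicate 1 stood apart from replicates 2 and 3, with a chi-square per degree of freedom of 12.4 and 18.1 against 3.44 between those replicates. A lower value in these bulk samples can come from less RNA per cell or from fewer expressing cells, which cannot be told apart.

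Of the 10 members, 9 passed the filter on low counts and Dusp5 did not. With shAD4-1, 3 of the 9 were called higher and 1 lower than in control at an adjusted p of 0.05 (edgeR's quasi-likelihood test, Benjamini-Hochberg over 13807 genes), beside 65% of all tested genes called. With shAD4-2, 2 were called higher and 3 lower, beside 69% of all tested genes. The share of members called was below the background in either comparison, a gap that rests on 9 genes and was not tested. The members had a median log2 fold change of 0.11 (shAD4-1) and -0.12 (shAD4-2), beside -0.01 over all tested genes in either comparison. The 2 comparisons share the control libraries. Between the hairpins 4 members were called higher in shAD4-1 than in shAD4-2 and none lower, beside 27.4% of tested genes called (14% higher and 13.4% lower). The median log2 difference was 0.43 for the members and 0.00 for all tested genes. Counted by groups whose FPKM did not overlap, 3 tested members were higher and 1 lower with shAD4-1, beside 29.7% and 39.2% of tested genes (68.9% in all). With shAD4-2, 2 were higher and 4 lower, beside 31.2% and 39.8% (71% in all). Between the hairpins 5 were higher in shAD4-1 and none lower, beside 22.2% and 22.4% (44.6% in all). FPKM carry no TMM factors (edgeR's scaling between libraries). Over all tested genes, FPKM gave more lower than higher with either hairpin. By contrast, edgeR called 32.7% higher and 32.3% lower with shAD4-1, and 34.2% and 34.8% with shAD4-2. Spred2 is among the 4 members lower by FPKM with shAD4-2 and was not called by edgeR.

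**Figure D1:**
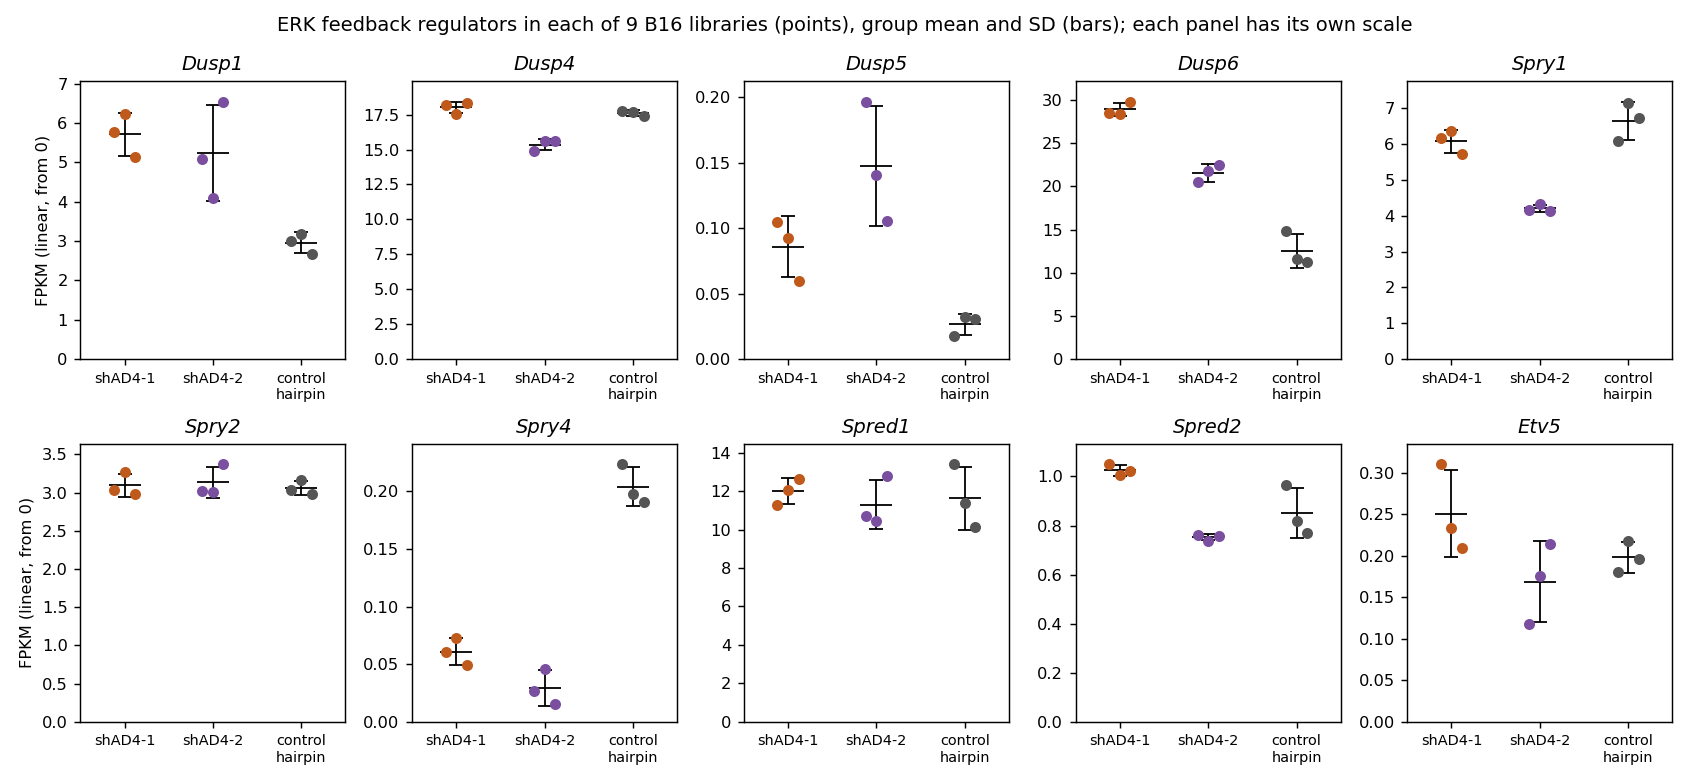
Level of each member in FPKM (vertical axes, linear from 0, a scale per panel) in the 3 libraries of each group, with points for libraries and bars for the mean and SD. Dusp6 ran from 20.5 to 29.8 FPKM in the hairpin libraries and from 11.3 to 14.8 in control libraries, while Spry4 was at most 0.0727 FPKM in the hairpin libraries.

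Of the phosphatases, Dusp6 and Dusp1 rose with both hairpins, and Dusp4 fell with shAD4-2. Dusp6, the cytoplasmic phosphatase that acts on ERK, stood at 28.6, 28.4 and 29.8 FPKM in shAD4-1 libraries, at 20.5, 21.8 and 22.5 FPKM in shAD4-2 libraries and at 14.8, 11.6 and 11.3 FPKM in control libraries. All hairpin libraries lay above all control libraries, and the ranges of the hairpin groups did not overlap either. The level rose 2.41-fold with shAD4-1 (log2 fold change 1.27, SE 0.07, adjusted p = 4.24e-11) and 1.79-fold with shAD4-2 (0.84, SE 0.08, adjusted p = 1.2e-08), and it was higher in shAD4-1 than in shAD4-2 by 0.43 on the log2 scale (SE 0.07, adjusted p = 0.00027). The highest control value came from replicate 1. A noncoding gene that RefSeq places across Dusp6, Gm34921, had at most 1 read in a library. With no strand setting given, that count does not show whether reads of Gm34921 were counted for Dusp6.

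Dusp1, a nuclear phosphatase of the stress kinases p38 and JNK as well as of ERK, is known as an immediate early gene. It stood at 5.76, 6.23 and 5.14 FPKM in shAD4-1 libraries, at 5.07, 4.09 and 6.54 FPKM in shAD4-2 libraries and at 3.01, 3.19 and 2.66 FPKM in control libraries. Hairpin and control libraries did not overlap, whereas the hairpin groups overlapped each other. Dusp1 rose 2.01-fold with shAD4-1 (log2 fold change 1.01, SE 0.14, adjusted p = 6.25e-06) and 1.84-fold with shAD4-2 (0.88, SE 0.15, adjusted p = 2.99e-05). Between the hairpins the log2 difference of 0.13 (SE 0.14) was not called (adjusted p = 0.532).

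Dusp4, a nuclear phosphatase induced by ERK, kept a high level in all groups. It stood at 18.2, 17.6 and 18.3 FPKM in shAD4-1 libraries, at 14.9, 15.6 and 15.6 FPKM in shAD4-2 libraries and at 17.8, 17.7 and 17.4 FPKM in control libraries. The shAD4-1 and control values overlapped, with a log2 fold change of 0.09 (SE 0.05, adjusted p = 0.117), while each shAD4-2 value lay below each of the others. With shAD4-2 Dusp4 fell by 0.14 on the log2 scale (SE 0.05, adjusted p = 0.0202). It was no longer called without control replicate 2 (adjusted p = 0.0754), without shAD4-2 replicate 1 (0.091) and with no filter on low counts (0.0768). The direct difference, 0.23 higher in shAD4-1 than in shAD4-2 (SE 0.05, adjusted p = 0.00227), was called.

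Dusp5, a nuclear phosphatase selective for ERK, was barely detected. It had 7, 6 and 4 reads in shAD4-1 libraries, 13, 8 and 6 in shAD4-2 libraries and 1, 2 and 2 in control libraries. The hairpin counts all exceeded the control counts, at 0.0598 to 0.105 FPKM in shAD4-1, 0.105 to 0.197 in shAD4-2 and 0.0175 to 0.0319 in control libraries. It was tested only when no filter on low counts was used, where its log2 fold change was 1.67 with shAD4-1 (SE 0.94, adjusted p = 0.153) and 2.44 with shAD4-2 (SE 0.90, adjusted p = 0.0161), sizes that rest on 5 control reads in all. The log2 difference between shAD4-1 and shAD4-2, -0.77 (SE 0.76, adjusted p = 0.606), was not called there.

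Of the Sprouty genes, Spry4 fell with both hairpins, Spry1 fell with shAD4-2, and Spry2 was not called in either comparison. Spry4 had the largest fall of the tested members and a low level throughout. It had 23, 27 and 19 reads in shAD4-1 libraries, 10, 15 and 5 in shAD4-2 libraries and 73, 71 and 72 in control libraries, which is 0.0497 to 0.0727 FPKM in shAD4-1, 0.0153 to 0.0462 FPKM in shAD4-2 and 0.191 to 0.223 FPKM in control libraries. No group overlapped another. Spry4 fell 3.20-fold with shAD4-1 (log2 fold change -1.68, SE 0.32, adjusted p = 0.000131) and 6.65-fold with shAD4-2 (-2.73, SE 0.36, adjusted p = 1.83e-06). The log2 difference of 1.05 between shAD4-1 and shAD4-2 (SE 0.40) missed the threshold at an adjusted p of 0.0565. It passed without shAD4-2 replicate 2 (1.51, adjusted p = 0.0238), with DESeq2 (0.0448) and with a minimum of 1 CPM in 3 libraries (0.0424).

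Spry1, another Sprouty inhibitor, stood at 6.16, 6.35 and 5.72 FPKM in shAD4-1 libraries, at 4.16, 4.32 and 4.12 FPKM in shAD4-2 libraries and at 6.09, 7.14 and 6.73 FPKM in control libraries. Only the shAD4-2 libraries were separate from the other groups, at no more than 4.32 FPKM. Spry1 fell 1.53-fold with shAD4-2 (log2 fold change -0.61, SE 0.09, adjusted p = 5.46e-06), and its change with shAD4-1 was not called (-0.07, SE 0.08, adjusted p = 0.456). The hairpins themselves differed by 0.54 (SE 0.09, adjusted p = 0.000195).

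Spry2, the best-studied Sprouty inhibitor of growth factor receptor signalling, stood at 3.03, 3.27 and 2.98 FPKM in shAD4-1 libraries, at 3.02, 3.01 and 3.37 FPKM in shAD4-2 libraries and at 3.04, 3.16 and 2.98 FPKM in control libraries. All 3 groups overlapped. The log2 fold changes of 0.07 (SE 0.08, adjusted p = 0.445) and 0.09 (SE 0.08, adjusted p = 0.343) with shAD4-1 and shAD4-2 were not called, nor was their difference of -0.02 (SE 0.08, adjusted p = 0.909).

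Of the Spred genes, Spred1, whose product binds neurofibromin and RAS, stood at 11.3, 12.1 and 12.6 FPKM in shAD4-1 libraries, at 10.7, 10.4 and 12.8 FPKM in shAD4-2 libraries and at 13.4, 11.4 and 10.1 FPKM in control libraries. The control values spread more widely than those of shAD4-1, with replicate 1 at the top, and the groups overlapped. Neither the log2 fold change with shAD4-1 (0.11, SE 0.08, adjusted p = 0.274) nor that with shAD4-2 (0.02, SE 0.08, adjusted p = 0.882) was called, and the hairpins differed by 0.09 (SE 0.08, adjusted p = 0.456), which was not called either. Without control replicate 1 the first was called, at 0.22 (adjusted p = 0.00427), as it was with no filter on low counts (0.12, adjusted p = 0.046).

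Spred2, a relative with the same arrangement of domains, had 1462, 1366 and 1431 reads in shAD4-1 libraries, 1054, 877 and 903 in shAD4-2 libraries and 1152, 1070 and 1060 in control libraries. That is 1.05, 1.01 and 1.02 FPKM in shAD4-1, 0.762, 0.738 and 0.758 in shAD4-2 and 0.964, 0.816 and 0.768 in control libraries. In FPKM the shAD4-1 values lay above those of control. The shAD4-2 values lay narrowly below them, at no more than 0.762 against at least 0.768. FPKM leave out the TMM factors, which were 1.023 to 1.032 in control and 0.987 to 0.988 in shAD4-2 libraries. The separation of shAD4-2 from control was not examined with those factors. Control replicate 1 was again the highest of its group. Spred2 rose 1.26-fold with shAD4-1 (log2 fold change 0.33, SE 0.07, adjusted p = 0.000363), a call that was lost with limma on log2(FPKM + 0.1) (0.25, adjusted p = 0.0904) and log2(FPKM + 1) (0.13, adjusted p = 0.0829), in both cases with genes of at least 1 FPKM in 3 libraries. With shAD4-2 the change of -0.12 (SE 0.07, adjusted p = 0.156) was not called, except without control replicate 3 (-0.17, adjusted p = 0.0376). Between the hairpins it differed by 0.45 (SE 0.07, adjusted p = 0.000137).

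Etv5, an ETS transcription factor that ERK signalling induces, was close to the floor of detection. It had 56, 41 and 38 reads in shAD4-1 libraries, 21, 27 and 33 in shAD4-2 libraries and 28, 37 and 35 in control libraries. The shAD4-1 counts were the highest, but in FPKM the groups overlapped, with 0.209 to 0.310 in shAD4-1, 0.117 to 0.214 in shAD4-2 and 0.181 to 0.218 in control libraries. The log2 fold changes of 0.40 (SE 0.30, adjusted p = 0.261) with shAD4-1 and -0.19 (SE 0.32, adjusted p = 0.617) with shAD4-2 were not called, and neither was the difference of 0.58 (SE 0.31, adjusted p = 0.178).

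**Figure D2:**
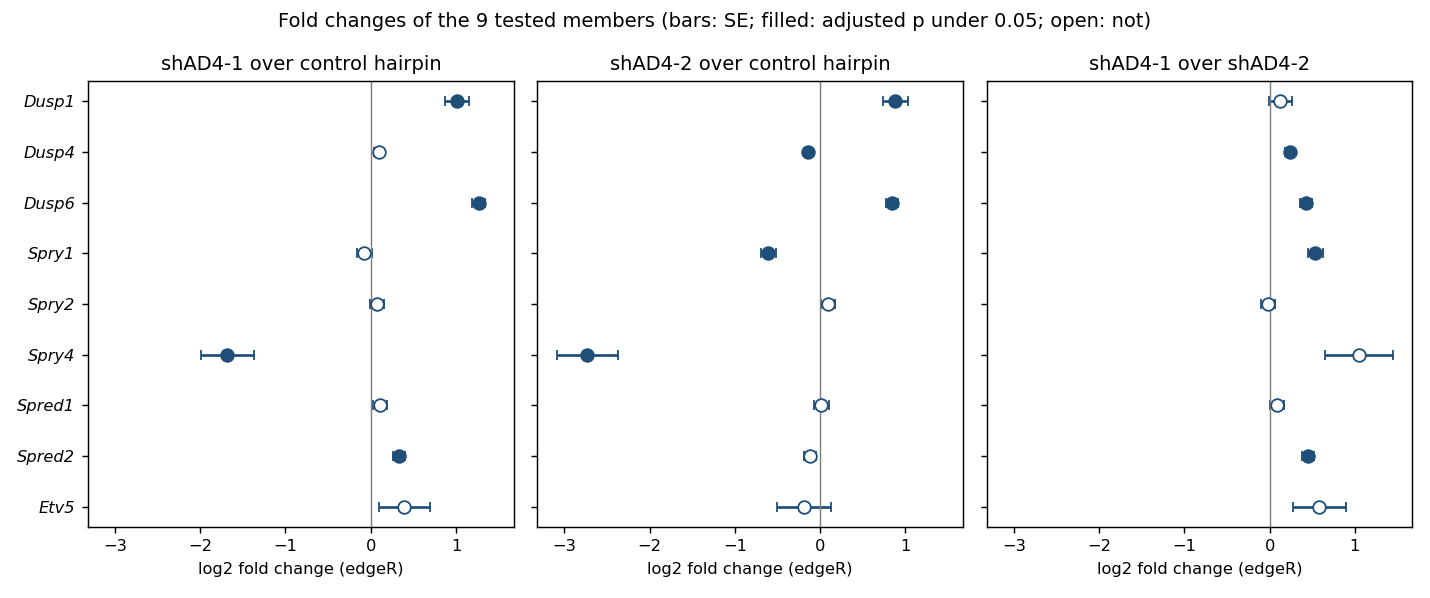
Log2 fold changes (horizontal axes) of the 9 tested members with shAD4-1 over control, shAD4-2 over control and shAD4-1 over shAD4-2, with bars for the SE and filled points for an adjusted p under 0.05. Dusp6 and Dusp1 lie to the right and Spry4 to the left in both comparisons with control, and Dusp4, Dusp6, Spry1 and Spred2 are filled on the right between the hairpins.

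Levels between genes can be set side by side per length. In shAD4-1 cells the order of mean FPKM was Dusp6, Dusp4, Spred1, Spry1, Dusp1, Spry2, Spred2, Etv5, Dusp5 and Spry4, with a mean of 28.9 ± 0.771 for Dusp6 (SD, n = 3). Spry1 overlapped Dusp1 there, and Dusp5 overlapped Spry4. In shAD4-2 cells Dusp6 again led, at 21.6 ± 1.05 against 15.4 ± 0.418 for Dusp4 and 11.3 ± 1.29 for Spred1. Dusp1 overlapped Spry1 and Etv5 overlapped Dusp5 in that group. In control cells Dusp4 led at 17.6 ± 0.205, followed by Dusp6 at 12.5 ± 1.97 and Spred1 at 11.6 ± 1.65, which overlapped each other, then by Spry1, Spry2, Dusp1, Spred2, Spry4, Etv5 and Dusp5. Spry2 overlapped Dusp1 and Spry4 overlapped Etv5 in control. The gene lengths behind the deposited FPKM ran from 1815 bases for Dusp5 to 10374 for Spry4, and to 37937 bases for Spred2. The places of Spred2 and Spry4 in this order rest on those lengths. Spry4 came after Dusp5 in both hairpin groups but had more reads, 69 against 17 over the shAD4-1 libraries and 30 against 27 over the shAD4-2 libraries.

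Ratios within a library do not depend on how libraries were scaled. The following ratios were chosen after the values had been seen and are given without a test. The ratio of Dusp6 to Dusp4 in FPKM was 1.57, 1.62 and 1.63 in shAD4-1 libraries, 1.38, 1.40 and 1.45 in shAD4-2 libraries and 0.834, 0.653 and 0.648 in control libraries. The order of both phosphatases was therefore turned round in each hairpin library. The ratio of Spry1 to Spry2 was 2.03, 1.94 and 1.92 in shAD4-1, 1.38, 1.43 and 1.22 in shAD4-2 and 2.00, 2.26 and 2.26 in control libraries, so that the shAD4-2 libraries stood below all others. For Spred1 over Spred2 it ran from 10.8 to 12.4 in shAD4-1, from 14.03 to 16.9 in shAD4-2 and from 13.2 to 13.9 in control libraries. The size of this ratio rests on the lengths of 7087 bases for Spred1 and 37937 for Spred2. In reads, Spred1 had 9307 against 4259 for Spred2 over the shAD4-1 libraries. It had 7921 against 2834 over the shAD4-2 libraries and 8390 against 3282 over the control libraries. The 3 groups did not overlap in this ratio. They all overlapped in the ratio of Dusp1 to Dusp6, which averaged 0.198 ± 0.0236 in shAD4-1, 0.242 ± 0.0514 in shAD4-2 and 0.238 ± 0.0366 in control libraries.

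**Figure D3:**
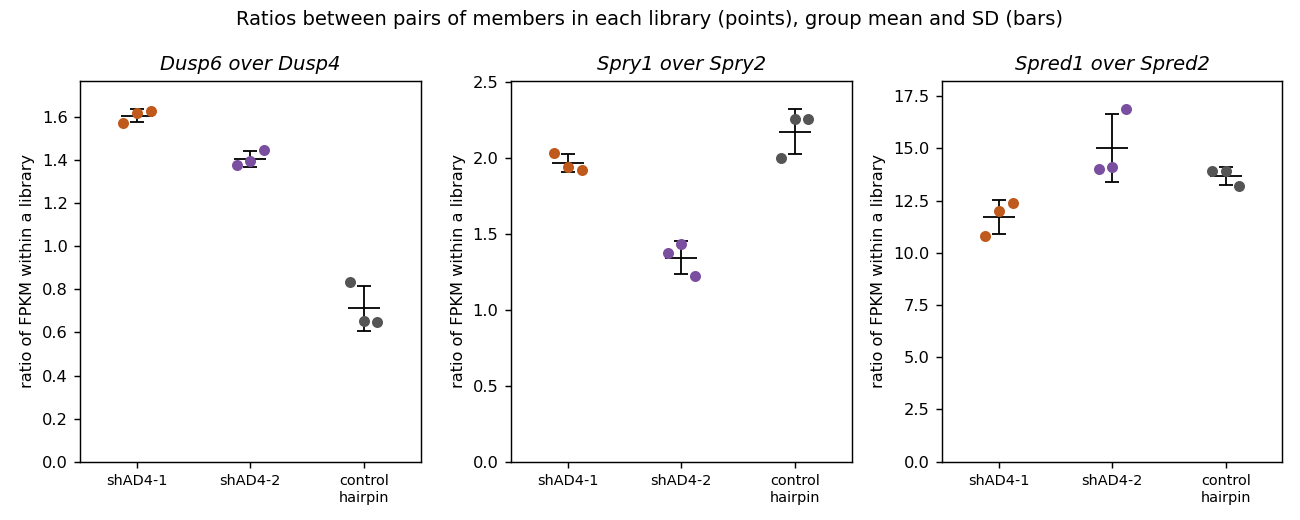
Ratio of the FPKM of one member to that of another within a library (vertical axes, linear from 0), with points for libraries and bars for the mean and SD of each group. Dusp6 over Dusp4 was above 1 in all 6 hairpin libraries and below 1 in the 3 control libraries, and Spry1 over Spry2 was lowest in shAD4-2.

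Profiles over the 9 libraries were compared by the Euclidean distance of log2 CPM centred on the mean of each gene. Dusp6 and Dusp1 were each other's nearest member, at a distance of 0.713. Spry2 and Spred1 were likewise nearest to each other, at 0.361, and Spry4 was far from any member, at 2.77 from Spry1. Among all tested genes with a mean of at least 5 CPM, those nearest to Dusp6 were Pgap6 (0.325), Maoa (0.337) and Aldh1l2 (0.341). For Spry2 they were Smim7 (0.133), Zfp598 (0.136) and Rnf185 (0.137), and for Etv5, whose counts were low, Plekhn1 (0.504), Eno1b (0.509) and Malat1 (0.556).

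The genes upstream of the feedback were described with a list of 20 genes of the RAS-ERK core, all tested, of which 5 were higher and 8 lower with shAD4-1, and 7 higher and 9 lower with shAD4-2. That is near the background, 65% of all tested genes called with shAD4-1 and 69% with shAD4-2. Map2k1 (MEK1) averaged 57.3 ± 1.10 FPKM in shAD4-1, 51.5 ± 1.06 in shAD4-2 and 82.6 ± 2.58 in control cells, and fell 1.39-fold with shAD4-1 and 1.54-fold with shAD4-2 (adjusted p = 3.71e-09 for shAD4-1 and 6.29e-11 for shAD4-2). Map2k2 (MEK2) went the other way, at 47.6 ± 0.961 FPKM in shAD4-1, 49.6 ± 2.59 in shAD4-2 and 35.0 ± 0.752 in control cells (adjusted p = 1.07e-08 for shAD4-1 and 2.11e-09 for shAD4-2). Mapk3 (ERK1) fell by 0.17 with shAD4-1 and by 0.38 with shAD4-2 on the log2 scale (SE 0.05 each, adjusted p = 0.0092 for shAD4-1 and 5.18e-06 for shAD4-2), and the first of these calls was lost without control replicate 2 (adjusted p = 0.0523) or replicate 3 (0.0676). Sos1, which loads RAS with GTP, rose 1.51-fold with shAD4-1 and 1.44-fold with shAD4-2 (adjusted p = 7.64e-10 for shAD4-1 and 3.84e-09 for shAD4-2). The list had a median log2 fold change of -0.09 (shAD4-1) and -0.10 (shAD4-2), beside -0.01 over all tested genes.

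Among 6 other MAP kinase phosphatases, 2 were higher and 4 lower with shAD4-1, and 1 was higher and 3 lower with shAD4-2, beside the same 65% and 69% of all tested genes called. Dusp8, which acts on JNK and p38, averaged 5.63 ± 0.209 FPKM in shAD4-1, 5.78 ± 0.272 in shAD4-2 and 7.80 ± 0.476 in control cells (adjusted p = 9.6e-06 for shAD4-1 and 2.41e-05 for shAD4-2). Dusp7, a cytoplasmic relative of Dusp6, was lower, with log2 fold changes of -0.29 and -0.32 (SE 0.06 and 0.07, adjusted p = 0.000765 for shAD4-1 and 0.000277 for shAD4-2). Dusp16 rose by 0.32 with shAD4-1 (SE 0.05, adjusted p = 2.11e-05) and by 0.16 with shAD4-2 (SE 0.05, adjusted p = 0.0116). The call of Dusp16 with shAD4-2 was lost without control replicate 2 (adjusted p = 0.0516), without shAD4-2 replicate 1 (0.07) and on FPKM with limma (0.109 to 0.158). Dusp9, which acts on ERK and was named after its values were seen, as the other gene called higher with shAD4-1, had 130 reads over the shAD4-1 libraries, 53 over the shAD4-2 libraries and 60 over the control libraries. Its log2 fold change was 1.07 with shAD4-1 (SE 0.37, adjusted p = 0.0166), which missed the threshold without control replicate 2 (adjusted p = 0.0931) or shAD4-1 replicate 1 (0.0726) and then left 1 gene of the list called higher. Dusp10, which acts on JNK and p38, had 367, 324 and 505 reads over the shAD4-1, shAD4-2 and control groups and fell 1.41-fold with shAD4-1 and 1.46-fold with shAD4-2 (adjusted p = 0.0167 for shAD4-1 and 0.01 for shAD4-2). The first of these calls was lost without shAD4-1 replicate 2 (adjusted p = 0.0835) or 3 (0.0777). Dusp7, Dusp8 and Dusp10 thus fell where Dusp6 and Dusp1 rose. Of 8 tested atypical dual-specificity phosphatases, 3 were higher and 4 lower with shAD4-1, and 4 higher and 4 lower with shAD4-2, again beside 65% and 69% of all tested genes called. Dusp3 stood at 28.7 ± 0.720 FPKM in shAD4-1, 35.6 ± 0.535 in shAD4-2 and 16.1 ± 1.82 in control cells (adjusted p = 1.46e-10 for shAD4-1 and 1.8e-12 for shAD4-2), Dusp18 rose 1.59-fold with shAD4-1 and 1.48-fold with shAD4-2 (adjusted p = 1.44e-08 for shAD4-1 and 1.14e-07 for shAD4-2), and Dusp19 fell 2.12-fold with shAD4-1 and 2.20-fold with shAD4-2 (adjusted p = 3.5e-09 for shAD4-1 and 1.69e-09 for shAD4-2).

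In a list of other feedback inhibitors, 8 of 10 genes were tested. With shAD4-1, 1 was higher and 6 lower, beside 32.7% and 32.3% of all tested genes (65% in all). With shAD4-2, 1 was higher and 5 lower, beside 34.2% and 34.8% (69% in all). Under alternative processing the number called lower ran from 4 to 6 with shAD4-1 and from 4 to 7 with shAD4-2. Il17rd, the membrane inhibitor Sef, averaged 0.421 ± 0.0332 FPKM in shAD4-1, 0.230 ± 0.0912 in shAD4-2 and 0.941 ± 0.147 in control cells. It fell 2.15-fold with shAD4-1 and 3.99-fold with shAD4-2 (adjusted p = 9.63e-05 for shAD4-1 and 2.11e-07 for shAD4-2). Cblb, a ubiquitin ligase that removes receptors, fell 1.68-fold with shAD4-1 and 1.74-fold with shAD4-2 (adjusted p = 1.63e-08 for shAD4-1 and 6.19e-09 for shAD4-2). Peak1 fell by 0.24 and 0.40 on the log2 scale (SE 0.05 each, adjusted p = 0.000396 for shAD4-1 and 9.79e-07 for shAD4-2). Peak1 is a pseudokinase and not an established feedback inhibitor, but the counts of lower genes in this list include it. Rasa2, a RAS GTPase-activating gene, rose 1.21-fold with shAD4-1 and 1.32-fold with shAD4-2 (adjusted p = 0.00015 for shAD4-1 and 1.75e-06 for shAD4-2).

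Of 14 listed transcripts known to be induced by ERK, 12 were tested, and the others had too few reads. With either hairpin 7 were higher and 3 lower. Of all tested genes, 32.7% were called higher and 32.3% lower with shAD4-1 (65% in all). With shAD4-2 these shares were 34.2% and 34.8% (69% in all). The list median was 0.56 with shAD4-1 and 0.54 with shAD4-2 on the log2 scale. Epha2, an ephrin receptor, averaged 3.16 ± 0.295 FPKM in shAD4-1, 3.06 ± 0.193 in shAD4-2 and 0.192 ± 0.0496 in control cells, a rise of 17.2-fold with shAD4-1 and 16.6-fold with shAD4-2 (adjusted p = 1.06e-13 for shAD4-1 and 1.15e-13 for shAD4-2). Ccnd1, cyclin D1, stood at 67.8 ± 1.25 FPKM in shAD4-1, 66.6 ± 0.558 in shAD4-2 and 33.5 ± 5.42 in control cells (adjusted p = 1.56e-10 for shAD4-1 and 1.87e-10 for shAD4-2), and Myc rose 2.07-fold with shAD4-1 and 2.16-fold with shAD4-2 (adjusted p = 4.27e-10 for shAD4-1 and 1.63e-10 for shAD4-2). Egr1, an immediate early factor, went the other way, at 0.241 ± 0.0815 FPKM in shAD4-1, 0.212 ± 0.0676 in shAD4-2 and 2.68 ± 0.291 in control cells (adjusted p = 3.62e-10 for shAD4-1 and 2.3e-10 for shAD4-2). Egr1 therefore fell where Dusp1 rose, although both are known as immediate early genes.

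Of 10 kinases of the JNK and p38 routes, 4 were higher and 3 lower with shAD4-1, and 5 higher and 3 lower with shAD4-2, near the 65% and 69% of all tested genes called. Not all of these kinases are substrates of Dusp1. Mapk14 (p38α) averaged 31.5 ± 0.890 FPKM in shAD4-1, 30.7 ± 0.392 in shAD4-2 and 45.8 ± 0.278 in control cells (adjusted p = 2.31e-09 for shAD4-1 and 6.85e-10 for shAD4-2). Mapk9 (JNK2) fell 1.37-fold with shAD4-1 and 1.44-fold with shAD4-2 (adjusted p = 3.95e-08 for shAD4-1 and 5.68e-09 for shAD4-2), and Mapk12 (p38γ) rose 1.96-fold with shAD4-1 and 1.95-fold with shAD4-2 (adjusted p = 6.88e-11 for shAD4-1 and 6.84e-11 for shAD4-2). The list medians were 0.06 and 0.17.

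**Figure D4:**
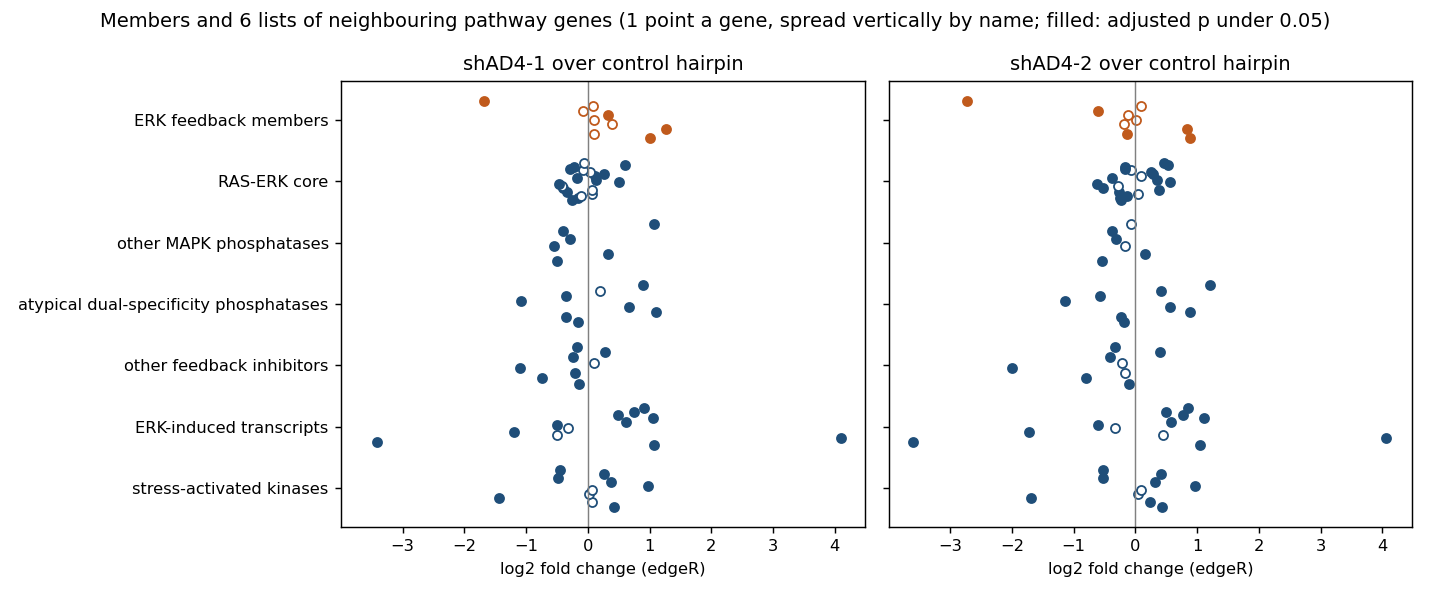
Log2 fold changes (horizontal axes) with shAD4-1 and with shAD4-2 over control for the 9 tested members and for 6 lists of related genes, a point a gene, filled where the adjusted p was under 0.05. The widest spread is in the ERK-induced transcripts, where Epha2 lies at 4.10 and 4.06 and Egr1 at -3.41 and -3.61.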

How the data were processed

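The authors deposited whole-number read counts per gene and FPKM for 9 libraries made, per the labels' protocols, with the VAHTS Universal V6 kit. The submitters' processing notes name fastp, HISAT2 and HTSeq, and the build GRCm39. The sources used here give neither versions nor a strand setting, so overlapping or antisense genes cannot be told apart by their reads. The deposited FPKM equal the deposited counts divided by the column sum and by a fixed length per gene. Members and lists were chosen with earlier results of these data known.

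The deposited counts were fitted in edgeR 4.0.16 (R 4.3.3) with filterByExpr (13807 of 21676 genes kept), TMM factors, a group term over all 9 libraries, glmQLFit and glmQLFTest, and Benjamini-Hochberg adjustment over all tested genes at 0.05. An SE is the absolute log2 fold change over root F. In lists, the genes with the 3 smallest adjusted p-values per comparison with control, and Mapk3, Map2k1 and Map2k2 are named; 1 other gene of that rule is not reported here. For Dusp6, Spry2 and Etv5 the 3 nearest genes are named. The fit was tested on simulated data with known changes. It recovered 62.7 to 76.1% of 1.25-fold changes and 98.5 to 100% of 2-fold changes. All changes were placed in genes above a minimum mean count, which Spry4, Etv5 and Dusp9 did not reach. Few genes were changed in those data, unlike in the comparisons with control, so the scaling was not tested for these. Alternatives changed the scaling (RLE, upper quartile), the tool (DESeq2 1.42.0, or limma 3.58.1 on FPKM) or the filter, fitted only 2 groups, used replicate numbers as a block, or left out a library or the mitochondrially encoded genes. Start regions came from RefSeq on GRCm38.p6.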

Additional observations from a re-analysis of the deposited data

Results flagged for a closer look

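The 2 hairpins differed from each other, in the direct test of shAD4-1 against shAD4-2 (edgeR, Benjamini-Hochberg over 13807 genes), for 4 members and for 7 of the genes named from the lists, beside 27.4% of all tested genes called. For the genes named from the lists, the share called was near that background. The log2 differences, shAD4-1 minus shAD4-2, were 0.23 for Dusp4, 0.43 for Dusp6, 0.54 for Spry1 and 0.45 for Spred2. All 4 members were higher in shAD4-1, with adjusted p-values from 0.000137 to 0.00227, and in each of them the 3 shAD4-1 libraries lay above the 3 shAD4-2 libraries. Among the genes of the lists the differences were 0.21 for Mapk3, 0.16 for Map2k1, 0.17 for Dusp16, -0.31 for Dusp3, 0.89 for Il17rd, 0.17 for Peak1 and 1.15 for Dusp9. Those of Dusp16 and Peak1 lost their call in 5 and 6 of 20 alternatives, with adjusted p-values of up to 0.109 and 0.101. Mapk3 (adjusted p = 0.0717) and Il17rd (0.0965) lost theirs only with limma on log2(FPKM + 1) without a filter. That of Dusp9 was lost without shAD4-1 replicate 1 or 3 or without shAD4-2 replicate 1 or 2 (adjusted p from 0.0808 to 0.117). The Spry4 difference of 1.05 was not called.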

How the results depend on the processing

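The 27 fold changes of the 9 tested members were recomputed under 20 alternatives. Of the 528 values obtained, 507 kept direction and side of the threshold, 5 lost a call, 6 gained one and 10 changed sign. None of the 10 that changed sign was a called value. The member count with shAD4-1 was 2 with limma on log2(FPKM + 1) and on log2(FPKM + 0.1) at a minimum of 1 FPKM in 3 libraries, against 4, where Spry4 was not tested and Spred2 was not called. Spred1 with shAD4-2 changed sign with upper-quartile scaling (-0.0168) and with limma on log2(FPKM + 1), with or without the minimum (-0.0362), and on log2(FPKM + 0.1) (-0.0388). Leaving out 1 library gave ranges of -0.0693 to 0.134 for Spred1 and -0.38 to 0.0300 for Etv5 and -0.395 to 0.228 for Dusp9 with shAD4-2, and of -0.0186 to 0.31 for Dusp1 and -0.0586 to 0.0334 for Spry2 between the hairpins. The cause was not tested. Member counts then ran from 4 to 5 with shAD4-1, from 4 to 6 with shAD4-2 and from 4 to 5 between the hairpins. The counts over all genes ran from 8372 to 9206, 8985 to 9704 and 2785 to 4937, the highest in each case without control replicate 1. Libraries with the same replicate number did not deviate together (correlations of -0.124 to 0.00225), and with the replicate block 4, 5 and 4 members and 8833, 9375 and 3511 genes were called. Counting error limits Dusp5, Spry4 and Etv5, which had at most 73 reads in a library. For the other genes named, 1011 values kept their direction and side of the threshold, 28 lost a call and 2, both of Dusp9 with shAD4-2, changed sign.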
